A study of Mus musculus with 4 samples.

Results

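The dual-specificity MAPK phosphatases are enzymes that switch off mitogen-activated protein kinases (MAPKs) by removing the phosphates from the threonine and the tyrosine of the activation loop. Here 8 genes of the family (Dusp1, Dusp2, Dusp4, Dusp5, Dusp6, Dusp7, Dusp10 and Dusp16) were chosen by gene symbol. All 8 were present among the 24784 genes of the deposited table, and all 8 were among the 12523 genes with a mean level of at least 1 RPKM that were tested. RPKM scales the reads of a gene to its length and to the size of the library, so levels can be compared between genes. Polyadenylated RNA came from cells that were sorted from liver tumours and labelled tumour-associated macrophages. All mice were male and 6 to 8 weeks old. Every mouse carried the treatment label "i.pv. Hepa 1-6", which names a mouse hepatoma line. There were 2 control libraries and 2 libraries of the genotype OXCT1mKO. The sources used here give neither the promoter that drives the deletion nor the sort antibodies nor the number of mice behind a library.

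MAPK cascades carry signals from growth factor, cytokine and pattern recognition receptors through 3 tiers of kinases to ERK, JNK and p38. Many of the phosphatases are themselves transcribed in response to the kinases that they inactivate, and so form a negative feedback loop. Dusp1, Dusp2 and Dusp4 encode inducible nuclear enzymes, Dusp5 a nuclear enzyme selective for ERK, Dusp6 and Dusp7 cytoplasmic enzymes selective for ERK, and Dusp10 and Dusp16 enzymes that prefer JNK and p38. In macrophages the family is best known through Dusp1, which limits p38 signalling and cytokine production after stimulation of Toll-like receptors.

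No read totals were given, and the lowest values set against each other put relative depths at 0.911 to 1.03, with control 1 set to 1. Only ratios near 1 were searched, so a large difference in depth could not have been found this way. RPKM sums were 377575 and 355951 in the controls and 327811 and 325034 in OXCT1mKO. The level of Oxct1, the gene of the label, was 19.3 and 20.3 RPKM in control 1 and 2 and 14.7 and 15.4 RPKM in OXCT1mKO 1 and 2. All 13 macrophage markers of a fixed list were tested, and their summed level was 1596 and 925 RPKM in control 1 and 2 and 1817 and 2003 RPKM in OXCT1mKO 1 and 2. Markers of other cells were present in every library, and control 1 stood apart by its globin transcripts, 8.81% of its RPKM sum against 0.132 to 0.327% in the other libraries. Control 2 stood apart by neutrophil markers, whose summed level was 1341 RPKM there, 172 RPKM in control 1 and 592 and 410 RPKM in OXCT1mKO. The labels do not say whether the libraries came from separate animals, so the spread behind every p-value is that between these libraries and may be technical. A lower level in such a sorted population can mean fewer cells of a type or less RNA per cell, and these cannot be told apart here.

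Of the 8 phosphatase genes, 2 rose in OXCT1mKO (Dusp1 and Dusp5), 2 fell (Dusp2 and Dusp6) and 4 did not pass the test. A gene was called changed when the adjusted p of limma (Benjamini-Hochberg over all genes tested) was under 0.05. By that rule 32.8% of all genes tested changed, 16.4% upward and 16.4% downward, so the 4 of 8 has to be read against a high background. With the libraries scaled to equal sums without globin, 2718 genes were higher and 1478 lower, against 2058 and 2052 with the values as deposited. The libraries of the groups did not overlap for 6 of the 8 genes, against 74.7% of all genes tested. The median log2 fold change of the 8 genes was 0.15, beside 0.005 for all genes tested. Every call among the 8 was lost when either OXCT1mKO library was left out, fits in which 1 and 10 of all genes changed and the remaining OXCT1mKO library was assumed to vary as the controls do.

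**Figure D1:**
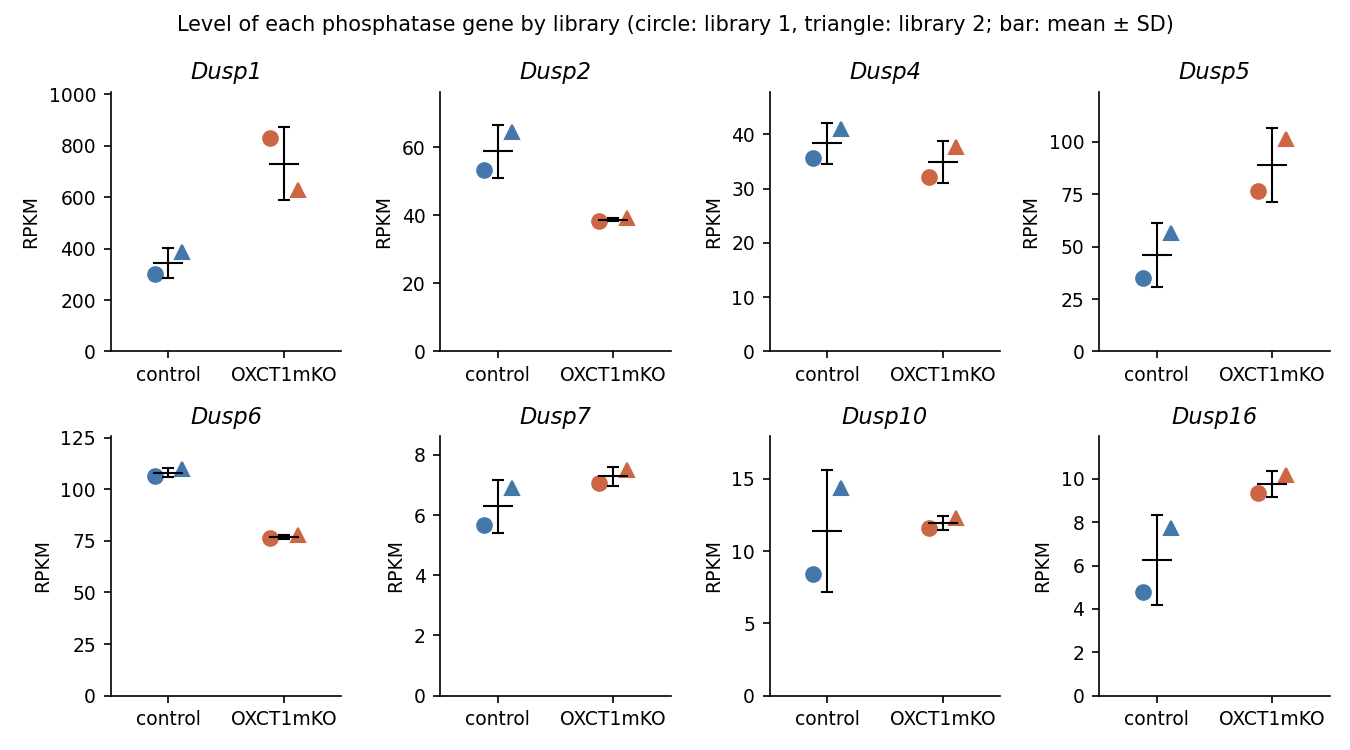
RPKM of each of the 8 phosphatase genes in the 2 control and 2 OXCT1mKO libraries, on linear axes that start at 0, with the mean and SD of each group. The OXCT1mKO points lie above both controls for Dusp1 and Dusp5, below both for Dusp2 and Dusp6, and between the controls for Dusp10.

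Dusp1 had the highest level of the family in all 4 libraries. The gene encodes a nuclear phosphatase of p38, JNK and ERK that is induced within minutes of stress, growth factors or glucocorticoids. It was 301.7 RPKM in control 1, 385.3 in control 2, 830.5 in OXCT1mKO 1 and 630.1 in OXCT1mKO 2. Both OXCT1mKO libraries were thus above both controls, with OXCT1mKO 1 the highest. The mean rose from 343.5 ± 59.1 to 730.3 ± 142 RPKM (SD, n = 2), a ratio of 2.13. On the log2(RPKM + 1) scale the fold change was 1.08 ± 0.20 (SE, limma adjusted p 0.0204). It was 0.88 to 1.28 when single libraries were left out, and the adjusted p was 0.0582 without the filter on low genes. Dusp1 spans 26505590 to 26562128 on the minus strand of chromosome 17 in build GRCm38, a span that reaches further upstream than the RefSeq start site used for the promoter, and 11 of its exon bases are shared with Ergic1 on the other strand.

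Dusp5 rose as well. Its product is confined to the nucleus, where it inactivates ERK and holds it. Levels were 35.1 RPKM in control 1, 56.7 in control 2, 76.4 in OXCT1mKO 1 and 101.5 in OXCT1mKO 2. The groups did not overlap, although the gap between the controls was larger than that between control 2 and OXCT1mKO 1. The mean rose from 45.9 ± 15.3 to 88.9 ± 17.8 RPKM (SD, n = 2), a ratio of 1.94. On the log2 scale the fold change was 0.97 ± 0.27 (SE, limma adjusted p 0.0491). This call was just inside the threshold. The adjusted p was 0.0501 with a pseudocount of 0.1, 0.0566 without the variance trend, 0.107 without the filter on low genes and 0.088 without control 1, where the fold change was 0.63. Dusp5 spans 53529109 to 53542431 on the plus strand of chromosome 19. An antisense transcript shares 547 bases, or 22.1%, of its exons, and the sources used here do not state whether counting used strand, so reads of that transcript cannot be told from those of Dusp5.

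Dusp2 fell. It encodes a nuclear phosphatase of ERK and p38 found mainly in blood cells, and is strongly induced in activated T cells and macrophages. Its levels were 53.2 RPKM in control 1, 64.3 in control 2, 38.3 in OXCT1mKO 1 and 39.1 in OXCT1mKO 2. The OXCT1mKO libraries were nearly equal and both were below the controls. The mean fell from 58.7 ± 7.84 to 38.7 ± 0.54 RPKM (SD, n = 2), with a log2 fold change of -0.58 ± 0.12 (SE) and a limma adjusted p of 0.0252. The adjusted p was 0.0525 without the filter on low genes. The summed level of 13 T cell markers was lower in OXCT1mKO too, and 5 of 13 fell. It was 285 and 190 RPKM in control 1 and 2 and 66.7 and 118 RPKM in OXCT1mKO 1 and 2. Between the controls the order differed, with the T cell sum higher in control 1 and Dusp2 higher in control 2. The summed level of hepatoma markers, given with Dusp6 below, was lower in OXCT1mKO as well. Macrophage markers moved the other way: 6 of 13 rose and 0 fell, with a median log2 fold change of 0.85. The part of any of these cell types in the fall of Dusp2 was not tested. Dusp2 spans 127336159 to 127338376 on the plus strand of chromosome 2.

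Dusp6 fell, and its fold change had the smallest standard error of the 8 genes. The gene encodes a cytoplasmic phosphatase specific for ERK and is widely used as a readout of ERK activity, because ERK signalling drives its transcription. It was 106.4 RPKM in control 1, 109.8 in control 2, 76.3 in OXCT1mKO 1 and 77.6 in OXCT1mKO 2. The libraries of each group were close together and the groups were well apart. The mean fell from 108.1 ± 2.38 to 77.0 ± 0.97 RPKM (SD, n = 2). On the log2 scale this was a change of -0.48 ± 0.08 (SE, limma adjusted p 0.0186), which lay between -0.51 and -0.46 when single libraries were left out. Dusp6 was the 1 member still called without the filter on low genes (adjusted p 0.036). Hepatoma markers were also lower in OXCT1mKO, with a summed level of 677 and 901 RPKM in control 1 and 2 and 517 and 456 RPKM in OXCT1mKO 1 and 2, and 3 of 6 markers fell. Their part in the fall of Dusp6 was not tested. The gene spans 99263231 to 99267489 on the plus strand of chromosome 10.

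Promoter stretches of the 4 changed genes were searched for matches to a few known motifs. The 200 bases from 250 to 51 bases before the RefSeq start site (build GRCm38.p6) are printed 5′ to 3′ on the strand of the gene. Capitals mark matches on either strand to the cyclic AMP response element (CRE, TGACGTCA), its core TGACG, the AP-1 site TGANTCA, the E-box CACGTG and the CArG box of serum response factor. The stretches lie at chr17:26508523-26508722 (minus strand, Dusp1), chr19:53528895-53529094 (plus strand, Dusp5), chr2:127335909-127336108 (plus strand, Dusp2) and chr10:99262981-99263180 (plus strand, Dusp6).
Dusp1: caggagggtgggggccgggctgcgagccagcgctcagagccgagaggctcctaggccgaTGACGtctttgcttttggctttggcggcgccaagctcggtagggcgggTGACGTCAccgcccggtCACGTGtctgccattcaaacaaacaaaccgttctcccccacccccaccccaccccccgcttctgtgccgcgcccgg
Dusp5: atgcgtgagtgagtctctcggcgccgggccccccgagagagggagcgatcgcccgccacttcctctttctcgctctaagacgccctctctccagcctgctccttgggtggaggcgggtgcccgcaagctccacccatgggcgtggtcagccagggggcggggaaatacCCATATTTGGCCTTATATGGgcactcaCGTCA
Dusp2: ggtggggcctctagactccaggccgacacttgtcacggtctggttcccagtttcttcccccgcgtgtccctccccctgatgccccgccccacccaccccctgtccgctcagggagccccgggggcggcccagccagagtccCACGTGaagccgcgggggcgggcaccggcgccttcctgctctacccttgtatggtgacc
Dusp6: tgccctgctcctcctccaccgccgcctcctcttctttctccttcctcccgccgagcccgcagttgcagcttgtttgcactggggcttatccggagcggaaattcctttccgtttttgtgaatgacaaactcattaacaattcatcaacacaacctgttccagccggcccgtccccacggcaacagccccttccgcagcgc

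The Dusp1 stretch held 1 full CRE, from 143 to 136 bases before the start, a separate CRE core from 191 to 187 bases before it, and 1 E-box. A full CRE contains the core on each strand, so 3 cores were counted in the stretch. The Dusp5 stretch held 2 CArG boxes side by side, from 82 to 73 and from 72 to 63 bases before the start, and 1 CRE core from 55 to 51 bases before it. The Dusp2 stretch held 1 E-box, and the Dusp6 stretch held 0 matches to any of the 5 motifs. Of 32851 promoter stretches of the same length, 0.828% held a full CRE, 12.7% a CRE core, 5.57% an AP-1 site, 4.34% an E-box and 1.16% a CArG box. A second CArG box was present in 0.00913% of them. Of the other members, the Dusp16 stretch held 1 CRE core and those of Dusp7 and Dusp10 held 0 matches. Sequences were found for 7 of the 8 members, and Dusp4 had none. These matches describe letters, not bound sites.

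The other 4 genes did not pass. Dusp4, whose nuclear product acts on ERK and JNK, was 35.6 RPKM in control 1, 41.0 in control 2, 32.2 in OXCT1mKO 1 and 37.6 in OXCT1mKO 2. Its groups overlapped, and the log2 fold change was -0.13 ± 0.12 (SE, limma adjusted p 0.435). Dusp7, the close relative of Dusp6, was 5.67 RPKM in control 1, 6.90 in control 2, 7.07 in OXCT1mKO 1 and 7.50 in OXCT1mKO 2. The groups were apart by less than the controls were from each other, and the log2 fold change of 0.19 ± 0.12 (SE) had a limma adjusted p of 0.28. Dusp4 spans 34807297 to 34819894 on the plus strand of chromosome 8, and Dusp7 spans 106368632 to 106375724 on the plus strand of chromosome 9.

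Both genes for JNK and p38 phosphatases depended on which control was used. Dusp10, which restrains JNK and p38 in innate immune cells and T cells, was 8.41 RPKM in control 1, 14.4 in control 2, 11.6 in OXCT1mKO 1 and 12.3 in OXCT1mKO 2. The OXCT1mKO libraries fell between the controls. The log2 fold change of 0.11 ± 0.24 (SE, limma adjusted p 0.754) became -0.25 without control 1 (limma adjusted p 0.128) and 0.46 without control 2 (limma adjusted p 0.0369). Dusp16, a JNK phosphatase, was 4.81 RPKM in control 1, 7.73 in control 2, 9.35 in OXCT1mKO 1 and 10.2 in OXCT1mKO 2. All of its OXCT1mKO values were above the controls, but its log2 fold change of 0.60 ± 0.21 (SE) had a limma adjusted p of 0.0884. It passed without control 2 (0.89, limma adjusted p 0.0184). Control 1 was the lowest library for Dusp1, Dusp5, Dusp7, Dusp10 and Dusp16. It was also lowest in the summed neutrophil, B cell, endothelial and dendritic cell markers, the last of these at 27.4 RPKM against 57.4 in control 2 and 90.0 and 119.6 in OXCT1mKO, and in the summed immediate early and stress genes. The part of these cells and of the stress genes in the levels of the 5 genes was not tested. Dusp10 spans 184013302 to 184075636 on the plus strand of chromosome 1, and Dusp16 spans 134715468 to 134792625 on the minus strand of chromosome 6.

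**Figure D2:**
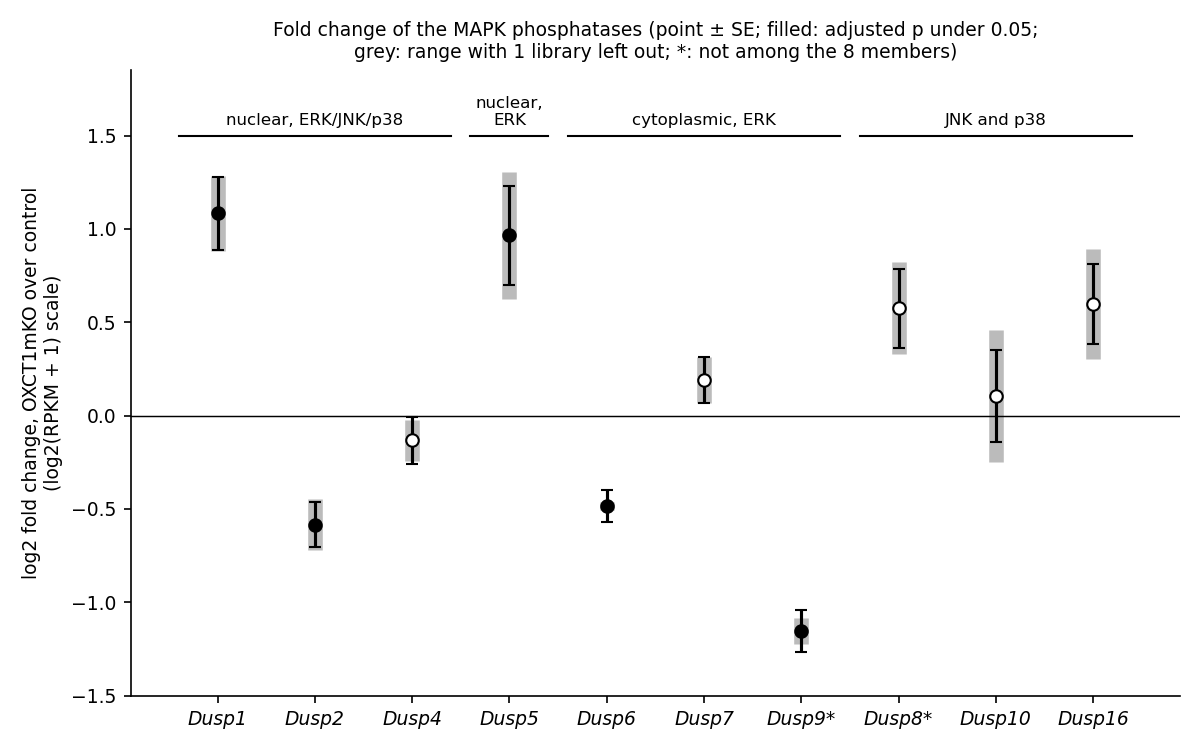
Log2 fold change with its SE for the 8 members and for Dusp8 and Dusp9, grouped by the kinases their products act on, with filled points for limma adjusted p under 0.05 and grey bars for the range when 1 library is left out. Filled points lie on both sides of 0, and Dusp10 is the 1 gene whose grey bar spans 0, from -0.25 to 0.46.

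The remaining typical MAPK phosphatases, which were not among the 8, are Dusp8 and Dusp9. Dusp9, which encodes a cytoplasmic ERK phosphatase like Dusp6, was 11.4 RPKM in control 1, 10.4 in control 2, 4.09 in OXCT1mKO 1 and 4.60 in OXCT1mKO 2. Both OXCT1mKO libraries were below both controls, with a log2 fold change of -1.15 ± 0.11 (SE, limma adjusted p 0.0127). Dusp8, a JNK and p38 phosphatase, was 0.80 RPKM in control 1, 1.53 in control 2, 2.38 in OXCT1mKO 1 and 1.98 in OXCT1mKO 2, and did not pass (log2 fold change 0.58, limma adjusted p 0.0941). Among the ERK-selective genes, Dusp5 was therefore higher, Dusp6 and Dusp9 lower and Dusp7 not called. Whether these fold changes differ from one another was not tested.

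The order of the 8 genes changed between the groups. Dusp1, at the 99.3rd percentile of mean level among all genes tested, ranked 1 in every library. Dusp6 ranked 2 in both controls and 3 in both OXCT1mKO libraries, and Dusp5 ranked 5 and 4 in the controls and 2 in both OXCT1mKO libraries. In OXCT1mKO 1 the levels of Dusp5 and Dusp6 were 76.4 and 76.3 RPKM, so their order there rests on a difference far below the spread. In control the SD range of Dusp5 (45.9 ± 15.3 RPKM) overlapped those of its neighbours Dusp2 (58.7 ± 7.84) and Dusp4 (38.3 ± 3.79). The SD range of Dusp16 (6.27 ± 2.07 RPKM) likewise overlapped those of Dusp7 (6.29 ± 0.87) and Dusp10 (11.4 ± 4.22). In OXCT1mKO the SDs of Dusp5 and Dusp6 overlapped (88.9 ± 17.8 and 77.0 ± 0.97 RPKM), as did those of Dusp2 and Dusp4 (38.7 ± 0.54 and 34.9 ± 3.84 RPKM). Dusp10, Dusp16 and Dusp7 followed at 12.0 ± 0.49, 9.78 ± 0.60 and 7.28 ± 0.30 RPKM.

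Summed over the 8 genes, the level was 551 and 686 RPKM in control 1 and 2 and 1082 and 916 RPKM in OXCT1mKO 1 and 2. Without Dusp1, the sums were 249 and 301 RPKM in control 1 and 2 and 251 and 286 RPKM in OXCT1mKO 1 and 2, so the groups were apart with Dusp1 in the sum and overlapped without it. Dusp1 made up 54.8 and 56.2% of the sum in control and 76.8 and 68.8% in OXCT1mKO. The share of Dusp6 was 19.3 and 16.0% in control and 7.05 and 8.48% in OXCT1mKO. The ratio of Dusp1 to Dusp6 was 2.84 and 3.51 in control and 10.9 and 8.12 in OXCT1mKO, and the ratio of Dusp5 to Dusp2 was 0.66 and 0.88 in control and 1.99 and 2.60 in OXCT1mKO. These ratios are taken within a library, so no scaling of whole libraries changes them. No test of 2 libraries against 2 by exact permutation can give a two-sided p below 0.333, so the shares and ratios are given as descriptions.

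**Figure D3:**
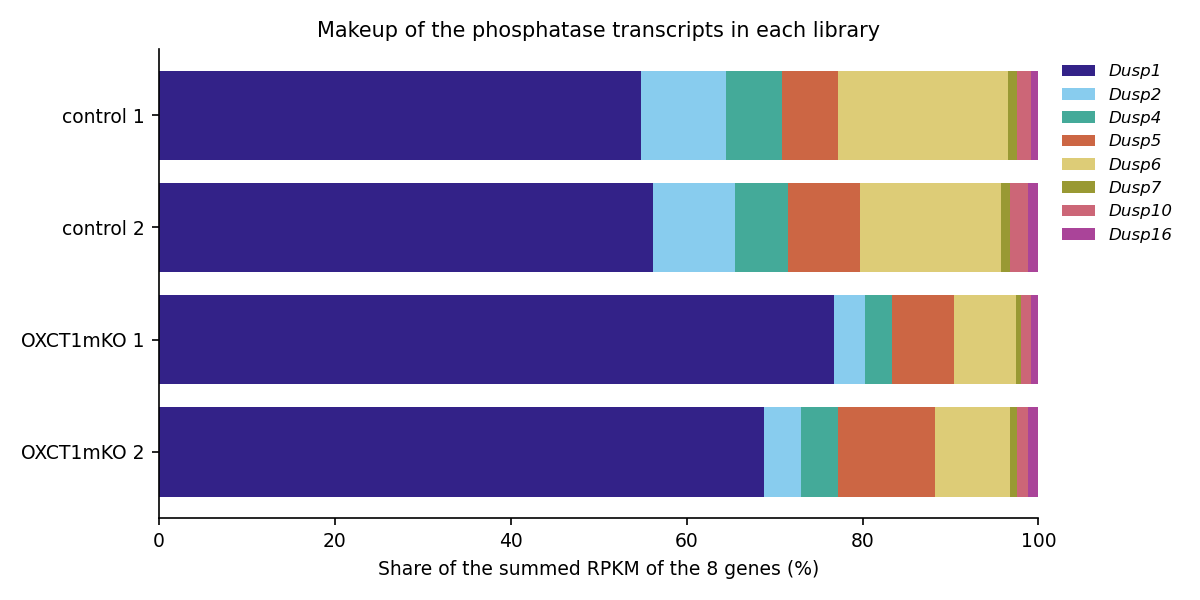
Share of each gene in the summed RPKM of the 8 phosphatase genes, in percent, 1 bar per library. The Dusp1 segment covers 54.8 and 56.2% in the controls and 76.8 and 68.8% in OXCT1mKO, and the Dusp6 segment is narrower in OXCT1mKO.

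The kinases that these enzymes act on were compared next, from fixed lists. Beside each count below stands the background of 16.4% in each direction, and all these counts were 0 when either OXCT1mKO library was left out. Of 11 tested MAP kinases, 2 rose, 1 fell and 8 did not pass, with a median log2 fold change of 0.24. Mapk3, which encodes an ERK, fell from 137.4 and 127.1 to 86.4 and 95.3 RPKM (-0.54 ± 0.10, limma adjusted p 0.0215). The p38 genes Mapk14 (0.60 ± 0.11, limma adjusted p 0.0194) and Mapk12 (0.80 ± 0.12, limma adjusted p 0.015) rose. Mapk14 was 17.5 and 19.5 RPKM in control 1 and 2 and 30.2 and 27.0 RPKM in OXCT1mKO 1 and 2. All 7 MAP2 kinases were tested and 0 changed by limma, while 3 had an unadjusted p under 0.05. With the libraries scaled to equal sums without globin, 3 MAP2 kinases and 4 MAP kinases rose. Map2k1 and Map2k2, which encode the activators of ERK, had fold changes of 0.29 and -0.22 (limma adjusted p 0.0519 and 0.0984). Of 20 tested MAP3 kinases, RAF kinases and their scaffolds, 11 rose and the other 9 did not pass, with a median of 0.45. Map3k3 (0.73 ± 0.11) and Map3k1 (0.72 ± 0.11) were among those that rose. The count of 11 was 6 without the filter on low genes and 7 without control 1. Of 9 kinases activated by MAPKs, 2 rose, with Mknk1, a kinase of a translation factor, going from 8.97 and 8.16 to 16.9 and 15.5 RPKM.

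Targets of the pathway were compared in the same way. Of 14 transcription factors that MAPKs phosphorylate, 8 rose and 6 did not pass (median 0.40). Among the 8 was Elk4 (0.90 ± 0.13), a partner of serum response factor. Jun, the target of JNK, was 374.7 and 411.6 RPKM in control 1 and 2 and 1047 and 778.7 RPKM in OXCT1mKO 1 and 2. Of 19 immediate early and stress genes, several of them also induced when tissue is digested into single cells, 11 rose and 8 did not pass. Their median was 0.72, and their summed level was 5837 and 6856 RPKM in control 1 and 2 and 12470 and 11540 RPKM in OXCT1mKO 1 and 2. Like Dusp1, Egr1 (338.1 and 306.6 against 871 and 647.8 RPKM) was highest in OXCT1mKO 1. The heat shock gene Hspa1a was 299.2 and 674.7 RPKM in control 1 and 2 and 1814 and 2055 RPKM in OXCT1mKO 1 and 2. Hspa1b was close to it in every library, and these 2 genes held a large part of the rise in the sum. The 8 genes that did not pass had log2 fold changes from -0.09 (Ier5) to 0.55 (Fosb). The part of tissue digestion in the rise of Dusp1 was not tested. Of 7 tested genes induced by glucocorticoids, a class of inducers of Dusp1, 2 rose: Klf9 (0.90 ± 0.15) and Per1 (0.61 ± 0.16). That count was 5 with the libraries scaled to equal sums without globin. Without the filter on low genes, 4 of the transcription factors, 5 of the immediate early and stress genes and 1 of the glucocorticoid genes rose. The count of transcription factors was 5 without control 1 and 5 with a replicate block. That of glucocorticoid genes was 1 without control 1 and 4 without control 2.

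Genes used as readouts of ERK output, a list to which Dusp6 is often added, fell for 4 of 11 tested and rose for 1, with a median of -0.36. With equal sums without globin 2 fell and 2 rose, and without the filter on low genes 1 fell and 0 rose. Etv4, a transcription factor induced by ERK signalling, fell from 27.6 and 25.7 to 12.2 and 10.2 RPKM (-1.19 ± 0.12, limma adjusted p 0.0127). Phlda1 (-0.53 ± 0.13), Myc (-0.54 ± 0.12) and Ier3 (-0.36 ± 0.10) fell as well. The 1 gene that rose was Spry2, which encodes a feedback inhibitor of receptor tyrosine kinase signalling, from 3.28 and 3.87 to 5.90 and 6.28 RPKM. Its relative Spry4, of the same list, was higher in both OXCT1mKO libraries but did not pass (0.43 ± 0.12, limma adjusted p 0.0537). The other genes of the list that did not pass had negative fold changes. The list left out Dusp5 and the immediate early genes above. Among these, Egr1 and Fos rose (log2 fold change 1.22 and 0.72), as 11 of those 19 genes did, while 0 fell. The median of -0.36 therefore describes this choice of genes and not ERK output as a whole. Of 12 other inhibitors of the ERK pathway, which include Spry2, 2 rose and 1 fell, against 6 and 1 with equal sums without globin. The gene that fell was Pebp1, which encodes an inhibitor of RAF, at 135.7 and 145.9 RPKM in control 1 and 2 and 80.7 and 79.9 RPKM in OXCT1mKO 1 and 2.

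**Figure D4:**
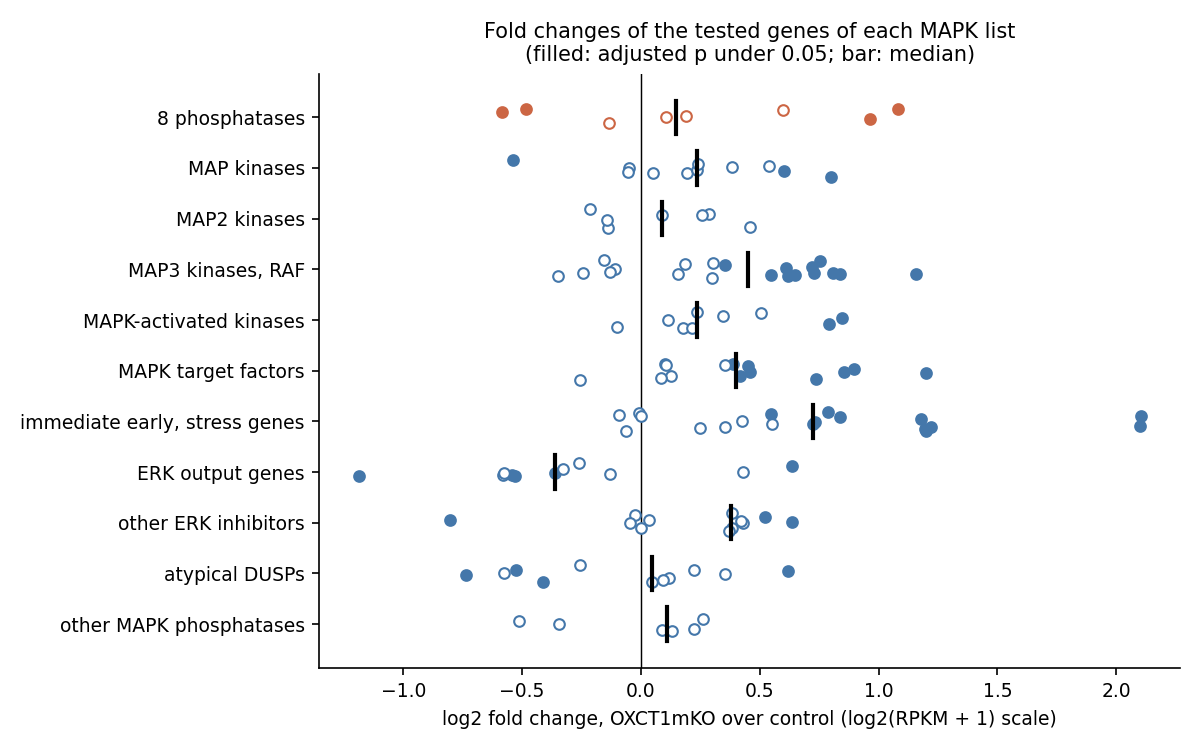
Log2 fold change of every tested gene of the 8 phosphatases and of 10 MAPK lists, 1 point per gene, filled where the limma adjusted p was under 0.05, with the median as a bar. Medians were 0.72 for immediate early and stress genes, 0.45 for MAP3 kinases and RAF, and -0.36 for ERK output genes. Some genes are in more than 1 list.

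Other phosphatases were compared as well. Of 6 tested serine/threonine and tyrosine phosphatases that also act on MAPKs, 0 changed by limma and 2 had an unadjusted p under 0.05. The 2 were Ppp2cb and Ptpn7, both lower in OXCT1mKO (log2 fold change -0.35 and -0.51). Ppp2ca and Ppp2cb, which encode catalytic subunits of protein phosphatase 2A, went opposite ways. Ppp2ca was 65.1 and 77.9 RPKM in control 1 and 2 and 86.9 and 84.5 RPKM in OXCT1mKO 1 and 2. Ppp2cb was 39.3 and 46.6 RPKM in control 1 and 2 and 34.8 and 32.2 RPKM in OXCT1mKO 1 and 2. Of 11 tested atypical dual-specificity phosphatases, which lack the MAPK-binding domain, Dusp3 rose and Dusp12, Dusp28 and Ptpmt1 fell. Dusp3 went from 20.6 and 25.3 to 35.9 and 35.4 RPKM (0.62 ± 0.12, limma adjusted p 0.0235).

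Markers of several cell types moved with the groups. Leukocyte markers rose for 4 of 6 genes, and Ptprc, the common leukocyte antigen, was 27.7 and 28.0 RPKM in control 1 and 2 and 62.0 and 62.4 RPKM in OXCT1mKO 1 and 2, a log2 fold change of 1.13. Ptprc was picked after its values were seen and had the largest fold change of the 6. The other 5 lay between 0.31 (Coro1a) and 0.96 (Cd48), and the list's median was 0.80, beside 1.08 for Dusp1 and 0.97 for Dusp5. Macrophage markers rose for 6 of 13 genes and dendritic cell markers for 6 of 7. Endothelial markers rose for 8 of 11, with a summed level of 874 and 1084 RPKM in control 1 and 2 and 1766 and 1578 RPKM in OXCT1mKO 1 and 2. Hepatocyte markers rose for 3 of 10 genes (Cps1, Cyp3a11 and Mup20) and fell for 1 (Fgb), with a median log2 fold change of 1.16. Their summed level did not follow that median, at 1086 and 1080 RPKM in control 1 and 2 and 1096 and 898 RPKM in OXCT1mKO 1 and 2. Most of the sum was Alb and Trf, which were lower in both OXCT1mKO libraries and did not pass (log2 fold change -0.32 and -0.38). None of these lists had a gene in the table at 0 in all libraries. How much of the change in any phosphatase gene came with such cells was not tested.

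**Figure D5:**
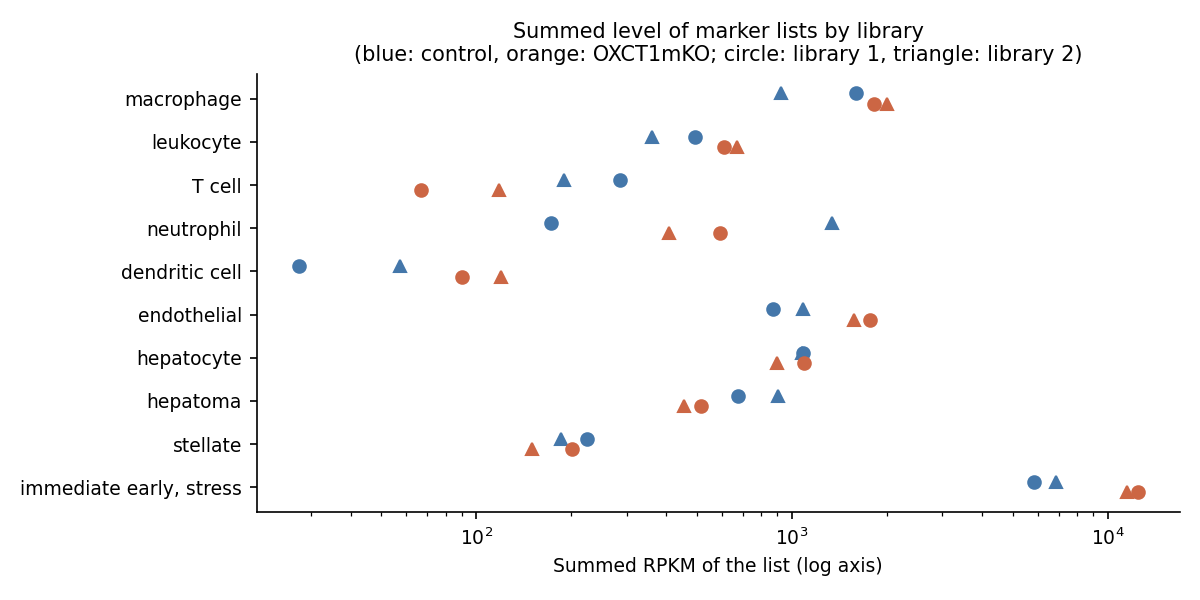
Summed RPKM of marker lists in each library on a log axis. T cell and hepatoma sums are lower in both OXCT1mKO libraries than in both controls, while leukocyte, macrophage, dendritic cell, endothelial, and immediate early and stress sums are higher.

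The genes nearest to each member were found by the Euclidean distance between log2(RPKM + 1) values over the 4 libraries, after subtracting the mean of each gene. Nearest to Dusp1 were Mx1, Ifi209 and Pdgfd (distances 0.0746, 0.0769 and 0.0782). Nearest to Dusp5 were Ccr1, a chemokine receptor of myeloid cells, Inhba and P2ry10 (0.0527, 0.107 and 0.119). Dusp2 was nearest to Ecscr, Cda and Padi4 (0.027, 0.0341 and 0.0413), and Dusp6 to Cct4, Bax and Trp53 (0.0135, 0.0185 and 0.0227). Dusp4 lay nearest to G6pc3 (0.0229), Dusp7 to Crebzf (0.0171), Dusp10 to Dram1 (0.0515) and Dusp16 to Noct (0.0178). With 4 libraries and 12523 genes, close neighbours are found for any gene, so these names describe a pattern over the libraries and nothing more.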

How the data were processed

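The authors deposited 1 table of RPKM values, with 1 gene symbol per row and 1 library per column. The submitters' processing notes name STAR 2.10, R 4.0.5 and build mm10. The counter, strand setting and annotation were not given in the sources used here. A count model does not suit RPKM values and was not used. Values were transformed to log2(RPKM + 1), and the 12523 genes with a mean of at least 1 RPKM were fitted in limma 3.58.1 (R 4.3.3) with a group term and moderated variances with a trend. Tests were two-sided, with Benjamini-Hochberg adjustment over all genes tested and a threshold of 0.05. Fold changes on this scale understate the change of low genes. The fit was also run on simulated data with far fewer changed genes than were called here. That run does not show how reliable the calls of this report are. The members, the gene lists and the alternatives were chosen with earlier results of these data known. From each pathway list, up to 3 genes with the smallest p and 2 with the highest mean were eligible to be named, and Dusp9 and Dusp8 were named as the rest of their list. A few further genes were named as a relative of a named gene or as an end of a range. Gene positions came from GENCODE release M21 (GRCm38, the assembly also called mm10) and promoters from RefSeq (GRCm38.p6). The alternatives were other pseudocounts, filters and scalings, no variance trend, a replicate block and each library left out.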

Additional observations from a re-analysis of the deposited data

How the results depend on the processing

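The 8 phosphatase genes kept their direction under all 12 alternatives, with the exception of Dusp10, which ranged from -0.25 (without control 1) to 0.46 (without control 2). Of the other pathway genes followed, Map2k3 (-0.39 to 0.11), Map3k11 (-0.014 to 0.38) and Pea15a (-0.037 to 0.11) changed sign when single libraries were left out. The number of the 8 that rose was 2. It was 1 with a pseudocount of 0.1, 1 without the trend, 0 without the filter on low genes, and 0 to 4 when single libraries were left out (1 without control 1, 4 without control 2, 0 without OXCT1mKO 1 or OXCT1mKO 2). The number that fell was 2, against 1 without the filter and 0 to 2 with single libraries left out. Their median of 0.15 ranged from -0.082 to 0.39 with single libraries left out. Of all genes tested, 1191 rose and 1149 fell without the filter, where 19514 genes were tested; with single libraries left out, 0 to 2362 rose and 1 to 2056 fell. Replicate numbers are shared by the groups. Over all genes tested, same-numbered libraries did not deviate together (Pearson r 0.05), so the numbers were not taken as pairs. Among the members, all except Dusp1 were higher in library 2 than in library 1 of both groups. How many of all genes tested share that order was not counted. A replicate block took the SE of Dusp5 from 0.27 to 0.12 and that of Dusp6 from 0.08 to 0.11. With a replicate block, 1871 genes rose and 1735 fell, and 3 of the 8 phosphatase genes rose, Dusp16 being added (limma adjusted p 0.0499). The cause of these changes was not tested. With no read counts, no detection limit could be set for Dusp8 and other low genes.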
